A study of Homo sapiens with 48 samples.

Results

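The genes described here are 10 amino acid transporters, chosen by symbol from the 14685 genes with a deposited count, all 10 of which were present: SLC7A11, SLC3A2, SLC7A5, SLC7A1, SLC1A4, SLC1A5, SLC38A1, SLC38A2, SLC6A9 and SLC7A6. They were listed by name, with earlier results of these data known. HEK293T cells, a human embryonic kidney line labelled WT, had taken up a plasmid that makes an NCBP1-Halo fusion protein, in every arm, controls included. NCBP1 is one of the 2 proteins that hold the cap of new transcripts in the nucleus. In T-REX, a photocaged form of HNE, a reactive aldehyde made when lipids oxidize, is bound to Halo, excess probe is rinsed away, and light then frees HNE beside the fusion protein. The controls are light alone, probe alone (the caged probe without illumination) and DMSO (vehicle, not illuminated). The methods as written list both probe and light for the light alone arm, so that what sets it apart from T-REX is not clear from them. RNA was purified after 3, 6 and 12 h, with 4 replicates per arm and time and 48 libraries of 1 cell line in all.

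Cells obtain amino acids through families of membrane carriers. SLC7A11 is the light chain of system xc-, which imports cystine in exchange for glutamate and so feeds glutathione, the thiol that conjugates HNE. SLC3A2 is the heavy chain that carries SLC7A11, SLC7A5 and SLC7A6 to the cell surface. SLC7A5 (LAT1) exchanges large neutral amino acids such as leucine, SLC7A6 (y+LAT2) exchanges cationic for neutral ones, and SLC7A1 (CAT1) takes up arginine and lysine. SLC1A4 (ASCT1) and SLC1A5 (ASCT2) exchange small neutral amino acids, serine and glutamine among them, SLC38A1 (SNAT1) and SLC38A2 (SNAT2) take up glutamine and alanine with sodium, and SLC6A9 (GlyT1) takes up glycine. Several of these genes are textbook targets of ATF4, a factor that is translated when cells are starved or stressed and that binds composite sites of the form TGATGNAAN. SLC7A11 is also a textbook target of NRF2, the factor that electrophiles release and that binds antioxidant response elements, for which the letters TGACNNNGC were searched.

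Promoters of 300 bases, from 250 before to 50 after the start, were available from RefSeq (GRCh38.p14) for 9 of the 10 genes, 15 promoters in all. None was available for SLC7A11, which was thus not searched. Both strands were searched. TGATGNAAN was in a promoter of 5 of the 9 genes and in 5 of their 15 promoters, against 4.45% of the 27305 genes in the table and 3.61% of its 35116 promoters. The windows are shown because they differ between close relatives among the transporters, with the motif in capitals and every run written along the minus strand. The minus strand is the strand of the gene for SLC7A1, SLC1A5 and SLC38A1, and the opposite one for SLC3A2 and SLC1A4.
SLC3A2, chr11:62881725-62881748: ggagcTGATGTAAGgagtcctgca
SLC7A1, chr13:29595663-29595691: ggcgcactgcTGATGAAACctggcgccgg
SLC1A4, chr2:64989381-64989409: cggctggagaTGATGCAAAcgggagccgc
SLC1A5, chr19:46784893-46784921: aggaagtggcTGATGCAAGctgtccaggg
SLC38A1, chr12:46266502-46266530: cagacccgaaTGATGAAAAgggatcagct
The letters were not found in the promoters of SLC7A5, SLC38A2, SLC6A9 and SLC7A6. They were in 1 of the 3 promoters of SLC3A2 and of SLC1A5, and in 1 of the 2 of SLC1A4 and of SLC38A1. The SLC1A5 match lay before the start of its promoter, and the other printed matches overlapped or followed the start. TGACNNNGC was in a promoter of 5 of the 9 genes (SLC3A2, SLC7A5, SLC7A1, SLC1A5 and SLC7A6) and in 5 of the 15 promoters, against 16.1% of the genes and 13.3% of the promoters in the table. A match is a description of these letters in a window of this length, not of a bound site, and the deposited counts hold no measurement of binding.

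The values tested are the raw counts of each gene as deposited. The total per library lay between 23952455 and 37099535 counts, and the 10 transporters had between 215 counts (SLC6A9) and 24184 counts (SLC38A1) in a library. VIM (432 to 683 CPM) and the neurofilament genes NEFL (33.1 to 102) and NEFM (22.0 to 47.4), which HEK293T cells are known to express, were present. KRT8 and KRT18 were low (at most 13.7 CPM), and PAX2, also looked for in these cells, was not among the listed genes. Nor were the leukocyte and hepatocyte markers looked for. Of the fibroblast markers, COL1A1 was present at 2.09 to 6.18 CPM, and DCN and LUM were not listed. Levels are given as CPM, counts relative to the size of the library, with TMM library sizes computed within a time point. A gene was called at an adjusted p of at most 0.05 in edgeR's quasi-likelihood test over all 14685 genes, with Benjamini-Hochberg adjustment, and all adjusted p-values here are from that test. The replicates are described as independent biological ones. In bulk RNA, fewer expressing cells and less RNA per cell cannot be told apart.

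Differences between libraries in NCBP1 level, and 1 library that stood apart, touch the results. Reads of NCBP1, from the plasmid and the endogenous gene together, made up 3.51 to 8.0% of the counts of an arm and differed between arms. NCBP1 was higher under T-REX than under DMSO at 3 and 12 h, by 0.50 (adjusted p = 0.029) and 0.73 (adjusted p = 0.00252) on the log2 scale, and than under light alone at 6 h, by 0.80 (adjusted p = 0.0214). Against probe alone the log2 fold change of NCBP1 was 0.25 (adjusted p = 0.308), -0.19 (adjusted p = 0.878) and -0.04 (adjusted p = 0.942) at 3, 6 and 12 h, so that probe alone is the control with the most similar NCBP1 level at the later times. Replicate 3 of DMSO at 12 h had the lowest of the 4 values for 6 of the 10 transporters and the highest for SLC38A1 and SLC38A2. Values of the transporters with NCBP1 level taken into account and without that library are given below.

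**Figure D1:**
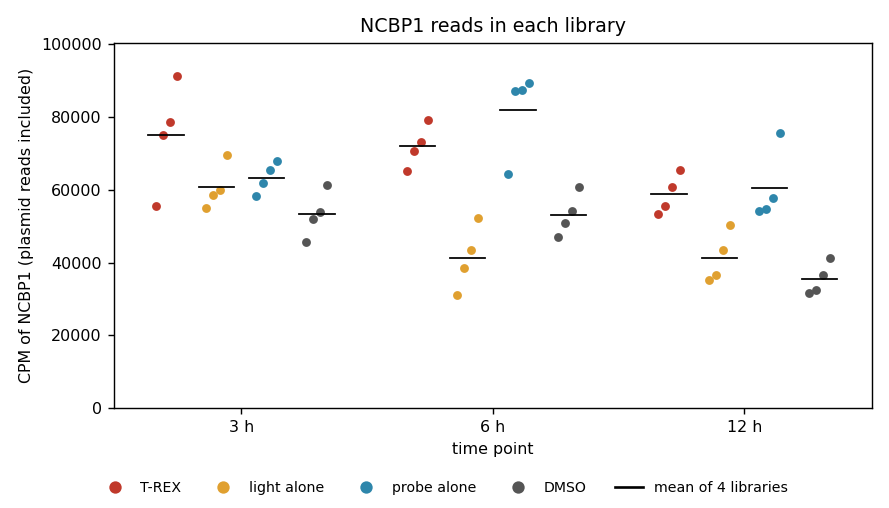
NCBP1 reads per library in CPM (vertical axis, starting at 0), plasmid reads included, by arm and time point, with 1 point for each of the 48 libraries and a bar for the mean of 4. The values run from 31200 to 91280 CPM. T-REX and probe alone overlap at each time, and at 12 h every T-REX library lies above every light alone and DMSO library.

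At 3, 6 or 12 h after T-REX, some transporter transcripts were higher than in at least 2 of the 3 controls. These were the cystine importer SLC7A11, the neutral amino acid exchanger SLC1A4, the cationic carrier SLC7A1, the glutamine carrier SLC38A1 and the glycine carrier SLC6A9. SLC38A2 and SLC7A6 were called in no comparison of T-REX with a control. These are differences between arms at a time, not rises over time. From 3 to 12 h within T-REX, SLC38A1 rose (0.23), and SLC7A11 (-0.10), SLC7A1 (-0.11), SLC1A4 (0.01) and SLC6A9 (0.33) were not called. In DMSO over that span SLC7A11 (-0.63), SLC7A1 (-0.46) and SLC1A4 (-0.20) fell, with limits given below. Of the 90 tests of a transporter against a control, 27 were called, all 27 higher under T-REX. SLC1A4 alone met the rule of 2 controls at 3 h, SLC7A11 and SLC1A4 at 6 h, and SLC7A11, SLC7A1, SLC1A4, SLC38A1 and SLC6A9 at 12 h. Among all genes, 0.177%, 0.0545% and 0.49% met that rule in the higher direction at 3, 6 and 12 h, which is 26, 8 and 72 genes.

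Against light alone, 0, 3 and 6 of the 10 transporters were called higher at 3, 6 and 12 h, where 0.0817%, 0.123% and 0.497% of all genes were. Against probe alone the counts were 1, 1 and 4 of 10, beside 0.238%, 0.0204% and 0.197% of all genes. Against DMSO they were 1, 4 and 7 of 10, beside 1.45%, 0.177% and 4.09% of all genes. For the comparison with light alone at 3 h, which called 0 of the 10, 5 had an unadjusted p of at most 0.05, as had 2174 genes in all, and DESeq2 called 2 of the 10. In the same order of controls, the median log2 fold change of the 10 was 0.11, 0.12 and 0.05 at 3 h, 0.31, 0.20 and 0.18 at 6 h, and 0.28, 0.24 and 0.34 at 12 h. Over all genes the medians at 12 h were 0.00 in each of these comparisons. The 3 comparisons of a time point share the T-REX libraries and are not independent of each other. The share of all genes whose libraries do not overlap between T-REX and a control is not given here.

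**Figure D2:**
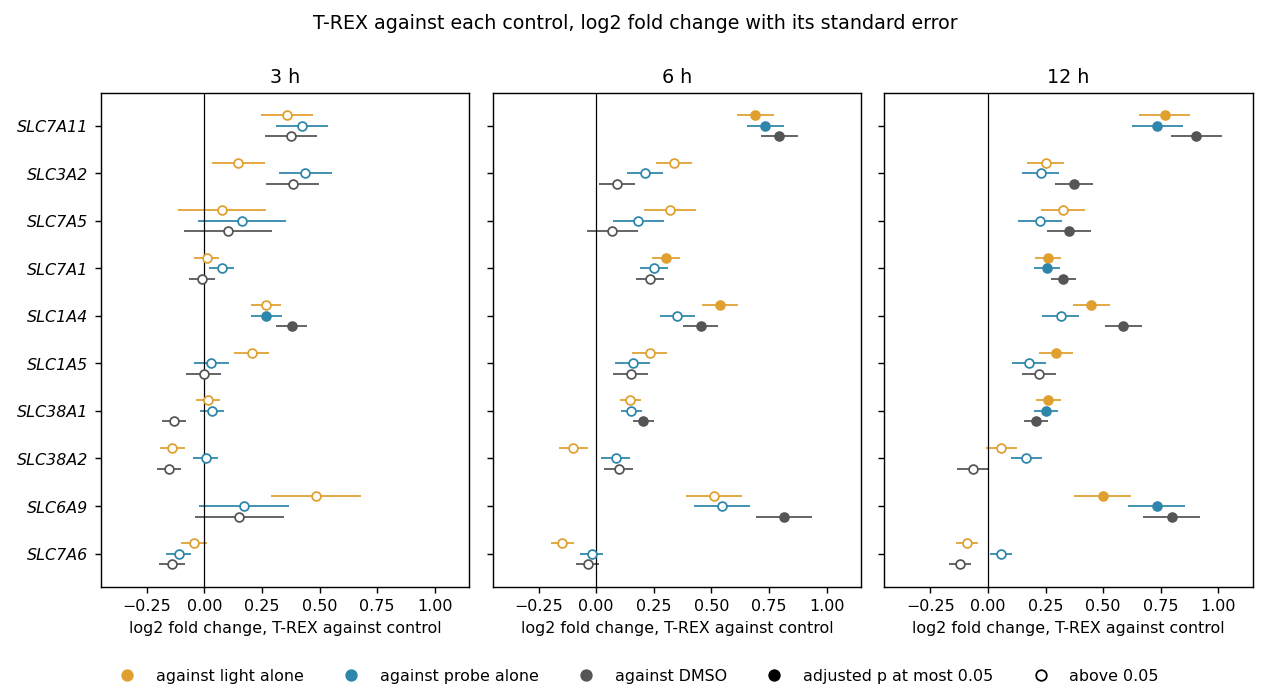
Log2 fold change of T-REX against each control (horizontal axis) for the 10 transporters at 3, 6 and 12 h, with bars of 1 standard error from edgeR's fit of 16 libraries and filled points where the adjusted p was at most 0.05. SLC7A11 reaches 0.69 to 0.80 at 6 h and 0.73 to 0.90 at 12 h, and SLC38A2 and SLC7A6 have no filled point.

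SLC7A11 (ENSG00000151012), the cystine importer, had the largest mean log2 fold change over the 3 comparisons at each time among the 10, and it was called at 6 and 12 h. At 3 h it was at 116, 145, 146 and 163 CPM under T-REX, 106 to 119 under light alone, 94.9 to 116 under probe alone and 95.4 to 132 under DMSO. The T-REX libraries lay above probe alone and overlapped light alone and DMSO, and none of the 3 differences was called (0.36, 0.42 and 0.38 on the log2 scale, each with an SE of 0.11, and adjusted p of 0.16, 0.0779 and 0.0616). At 6 h the T-REX libraries stood at 144, 156, 159 and 163 CPM. The controls lay between 83.9 and 106 CPM under light alone, 86.5 and 97.6 under probe alone, and 76.5 and 105 under DMSO, all below every T-REX library. SLC7A11 thus rose at 6 h by 0.69 ± 0.08 (log2, SE, n = 4 libraries per arm, edgeR adjusted p = 9.58e-05) over light alone, 0.73 ± 0.08 (adjusted p = 2.2e-05) over probe alone and 0.80 ± 0.08 (adjusted p = 8.02e-06) over DMSO, or 1.61-, 1.66- and 1.74-fold.

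At 12 h SLC7A11 was at 126, 130.0, 135 and 158 CPM under T-REX. Light alone had 72.4, 73.1, 85.0 and 92.7, probe alone 74.1, 75.1, 80.9 and 101, and DMSO 64.0, 66.0, 80.8 and 83.1 CPM. Again no control library reached the lowest T-REX library. In the same order of controls the rise was 0.77 ± 0.11 (log2, SE, edgeR adjusted p = 0.000957), 0.73 ± 0.11 (adjusted p = 0.00257) and 0.90 ± 0.11 (adjusted p = 9.79e-05), or 1.70-, 1.66- and 1.87-fold. Each of these 6 calls at 6 and 12 h was kept without any 1 of the 16 libraries of its time. With the NCBP1 level of each library as a covariate, the difference from probe alone was 0.81 at 6 h (adjusted p = 2.13e-08) and 0.76 at 12 h (adjusted p = 5.88e-06), and that from DMSO at 6 h was 0.58 (adjusted p = 0.000723). The differences from light alone at 6 and 12 h (0.28, adjusted p = 0.998, and 0.45, adjusted p = 0.175) and from DMSO at 12 h (0.42, adjusted p = 0.792) were not called with that covariate.

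SLC3A2 (ENSG00000168003), the heavy chain partner, was called in 1 of 9 comparisons. At 12 h its 4 T-REX libraries had 81.2, 82.3, 85.7 and 90.0 CPM. Light alone ran from 67.0 to 75.7, probe alone from 68.9 to 79.0 and DMSO from 52.0 to 77.7 CPM, so that every control library lay below. Against DMSO the log2 fold change was 0.37 ± 0.08 (SE, edgeR adjusted p = 0.00478), against light alone 0.25 (adjusted p = 0.143) and against probe alone 0.23 (adjusted p = 0.254). The DMSO value at 12 h without replicate 3 was 0.28 (adjusted p = 0.00374). It was not called in a fit of only the T-REX and DMSO arms, nor with NCBP1 level as a covariate (0.18, adjusted p = 0.962). At 3 h the T-REX libraries ran from 87.9 to 121 CPM, above probe alone (73.2 to 80.7) and DMSO (74.0 to 84.1) and overlapping light alone (75.7 to 108), with log2 fold changes of 0.15, 0.44 and 0.38 and adjusted p of 0.621, 0.0764 and 0.0638.

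SLC7A5 (ENSG00000103257), the leucine exchanger, was called only against DMSO at 12 h. Under T-REX it was at 129, 136, 139.9 and 153 CPM, and under DMSO at 87.5, 108, 108 and 133 CPM. Probe alone (107 to 134 CPM) also overlapped T-REX, while light alone (102 to 119 CPM) did not. The differences at 12 h were 0.33 (adjusted p = 0.106) from light alone, 0.22 (adjusted p = 0.379) from probe alone and 0.35 (adjusted p = 0.0229) from DMSO on the log2 scale. The call ended without DMSO replicate 3 (0.26, adjusted p = 0.0887), without T-REX replicate 1 (0.35, adjusted p = 0.0565) and without T-REX replicate 4 (0.31, adjusted p = 0.0676). It also ended with NCBP1 level as a covariate (0.05, adjusted p = 0.99). The spread was wide at 3 h, where T-REX alone ran from 116 to 215 CPM. SLC7A5 has close pseudogene copies in the genome, and how reads shared with them were counted is not stated.

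SLC7A6 (ENSG00000103064), which shares the heavy chain, was called in none of the 9 comparisons with T-REX. Its log2 fold changes ran from -0.15 (light alone, 6 h) to 0.05 (probe alone, 12 h). At 12 h T-REX libraries had 100.1 to 105.58 CPM, light alone 105.56 to 114, probe alone 95.8 to 104 and DMSO 105.84 to 116 CPM. Every T-REX library thus lay below every DMSO library at 12 h. The same held against DMSO at 3 h (98.9 to 107.8 against 109.3 to 116 CPM). It also held against light alone at 6 h (101 to 110 against 112 to 122 CPM). Among the 3 light chains and the heavy chain, SLC7A11 was called in 6 of 9 comparisons, SLC3A2 and SLC7A5 in 1 each, and SLC7A6 in 0. Whether their changes differ from each other was not tested. The gene overlaps SLC7A6OS on the opposite strand, which was tested and not called in any comparison.

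SLC7A1 (ENSG00000139514), the arginine and lysine carrier, rose at 12 h against all 3 controls by a small amount. T-REX libraries had 304, 305, 313 and 328 CPM. Light alone had 251, 252, 267 and 274, probe alone 244, 256, 266 and 281, and DMSO 226, 246, 251 and 273 CPM. Every T-REX library lay above every control library. The rises were 0.26 ± 0.06 (log2, SE, edgeR adjusted p = 0.0117), 0.26 ± 0.06 (adjusted p = 0.0233) and 0.33 ± 0.06 (adjusted p = 0.000581). At 6 h all T-REX libraries (281 to 322 CPM) again lay above the controls (216 to 269.6 CPM), and only the difference from light alone was called (0.30, adjusted p = 0.0247, against 0.25 with adjusted p = 0.128 and 0.23 with adjusted p = 0.0785). At 3 h T-REX (303 to 347 CPM) lay within the range of DMSO (295 to 354 CPM), with log2 fold changes of 0.01, 0.08 and -0.01.

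The SLC7A1 calls rested in part on single libraries. The 12 h call against light alone ended when T-REX replicate 1 (0.24, adjusted p = 0.0824), light alone replicate 1 (0.24, adjusted p = 0.0666) or light alone replicate 2 (0.24, adjusted p = 0.067) was left out. That against probe alone ended without any 1 of T-REX replicates 1, 2 and 4 and probe alone replicates 1, 2 and 3 (0.23 to 0.27, highest adjusted p = 0.147). The 12 h call against DMSO was kept in all 16 such fits, also without DMSO replicate 3 (0.28, adjusted p = 0.000209). The 6 h call against light alone ended without any 1 of T-REX replicates 2, 3 and 4, light alone replicate 1 and probe alone replicate 1 (0.27 to 0.32, highest adjusted p = 0.14). With NCBP1 level as a covariate, the 12 h difference from probe alone was 0.26 (adjusted p = 0.00576), and those from light alone and DMSO were 0.12 (adjusted p = 0.728) and 0.12 (adjusted p = 0.956).

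SLC1A4 (ENSG00000115902), an exchanger of serine, alanine and cysteine, was the only one of the 10 that met the rule of 2 controls at 3, 6 and 12 h. At 3 h it was at 34.7, 39.0, 40.1 and 41.0 CPM under T-REX. Light alone had 30.7 to 33.6, probe alone 30.1 to 35.2 and DMSO 29 to 30.3 CPM. All but the lowest T-REX library lay above every control library. The 3 h differences were 0.27 (adjusted p = 0.0739), 0.27 (adjusted p = 0.0497) and 0.38 (adjusted p = 0.00244). The call against probe alone at 3 h sat at the threshold and was kept in only 2 of 16 fits that left out 1 library, those without T-REX replicate 1 or 3 (0.24 to 0.32, adjusted p from 0.0246 to 0.165 over the 16), and it was also lost with RLE factors, in a fit of only the 2 arms, with the replicate number as a block and with limma-trend. The call against DMSO was kept in all 16, and with NCBP1 level as a covariate neither was made at 3 h (0.44, adjusted p = 0.0944, against DMSO and 0.30, adjusted p = 0.131, against probe alone).

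At 6 h SLC1A4 had 38.9, 39.5, 40.8 and 41.8 CPM under T-REX, against 23.5 to 30.4 under light alone, 29.8 to 34.4 under probe alone and 27.9 to 30.3 under DMSO. T-REX did not overlap any control. The differences were 0.54 (log2, edgeR adjusted p = 0.000762), 0.35 (adjusted p = 0.0799) and 0.45 (adjusted p = 0.00626). At 12 h T-REX had 38.3, 38.8, 41.8 and 42.1 CPM. Light alone had 28.1, 28.8, 29.8 and 31.4, probe alone 29.8, 30.4, 33.4 and 35.9, and DMSO 23.3, 25.3, 29.2 and 29.3 CPM. The T-REX libraries again lay above all controls, with log2 fold changes of 0.45 ± 0.08 (SE, edgeR adjusted p = 0.00228), 0.32 ± 0.08 (adjusted p = 0.0654) and 0.59 ± 0.08 (adjusted p = 7.02e-05), or 1.36-, 1.24- and 1.5-fold. The calls at 6 and 12 h were kept in all 16 fits without 1 library, and without DMSO replicate 3 the 12 h value was 0.53 (adjusted p = 2.61e-05). With NCBP1 level as a covariate the pattern of calls turned over: probe alone was called at 6 h (0.39, adjusted p = 0.0237) and at 12 h (0.33, adjusted p = 0.0218), and light alone (0.34, adjusted p = 0.998, and 0.26, adjusted p = 0.555) and DMSO (0.35, adjusted p = 0.144, and 0.31, adjusted p = 0.848) were not.

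SLC1A5 (ENSG00000105281), the glutamine exchanger of the same family, was called only against light alone at 12 h. T-REX libraries had 106, 109.7, 112 and 119 CPM and light alone 88.0, 89.0, 93.0 and 94.1 CPM, with a log2 fold change of 0.29 (adjusted p = 0.0414). Probe alone ran from 95.8 to 104 CPM, below T-REX, and DMSO from 76.6 to 111 CPM, overlapping it. The differences from these were 0.18 (adjusted p = 0.347) and 0.22 (adjusted p = 0.0512), the latter 0.13 (adjusted p = 0.121) without DMSO replicate 3. The call against light alone was kept in 3 of 16 fits without 1 library, those without DMSO replicate 1, 3 or 4 (adjusted p from 0.000204 to 0.201 over the 16). It was lost with NCBP1 level as a covariate (0.26, adjusted p = 0.595).

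SLC38A1 (ENSG00000111371), a sodium-coupled glutamine carrier and one of the most abundant of the 10, was not called at 3 h and rose against all 3 controls at 12 h. At 3 h T-REX had 476, 500.2, 503 and 565 CPM and DMSO 534, 549, 559 and 597 CPM, with log2 fold changes of 0.02, 0.03 and -0.13 in the order of controls used above. At 12 h T-REX had 574, 607, 649 and 650.3 CPM. Light alone had 500.3, 509, 529 and 529.7, probe alone 507, 515, 529.7 and 531, and DMSO 498, 512, 540.1 and 595 CPM. T-REX lay above both light alone and probe alone and overlapped DMSO through DMSO replicate 3, at 595 CPM. All 3 differences were called, at 0.26 ± 0.05 (SE, edgeR adjusted p = 0.00739), 0.25 ± 0.05 (adjusted p = 0.0192) and 0.21 ± 0.05 (adjusted p = 0.0125), and without DMSO replicate 3 the last was 0.27 (adjusted p = 0.000141). Without T-REX replicate 1 none of the 3 was called (0.24, 0.23 and 0.19, with adjusted p of 0.0586, 0.122 and 0.0602), and the call against probe alone was also lost without T-REX replicate 2 or probe alone replicate 1, 2 or 3 (0.23 to 0.26).

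At 6 h every T-REX library of SLC38A1 (589 to 621 CPM) exceeded every control library (489 to 569 CPM). On the log2 scale this was 0.15 (adjusted p = 0.2), 0.15 (adjusted p = 0.363) and 0.20 (adjusted p = 0.0453). The call against DMSO at 6 h was kept in 3 of 16 fits without 1 library, those without light alone replicate 3 or 4 or DMSO replicate 4 (adjusted p from 0.0118 to 0.16 over the 16). With NCBP1 level as a covariate, of the SLC38A1 calls only probe alone at 12 h was kept (0.25, adjusted p = 0.0157). The gene holds AC025031.3 within it on the same strand, and how reads that fit both were assigned is not stated.

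SLC38A2 (ENSG00000134294), the related carrier that amino acid starvation is known to induce, was not called against any control at any time. Its log2 fold changes ran from -0.15 (DMSO, 3 h) to 0.17 (probe alone, 12 h). At 3 h every T-REX library (389 to 422 CPM) lay below every DMSO library (433 to 471 CPM). At 12 h T-REX had 447, 508, 508 and 519 CPM and DMSO 467, 477, 503 and 628 CPM, where the highest DMSO value is replicate 3. Light alone had 458 to 484 CPM and probe alone 437 to 449 CPM, and the differences from the 3 controls at 12 h were 0.06, 0.17 and -0.07. The last of these turned to 0.04 (adjusted p = 0.627) without DMSO replicate 3.

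SLC6A9 (ENSG00000196517), the glycine carrier and the least abundant of the 10, rose against all 3 controls at 12 h. T-REX had 16.8, 17.4, 17.8 and 20.6 CPM. Light alone had 12.1, 12.1, 13.5 and 13.8, probe alone 9.47, 11.3, 11.3 and 11.7, and DMSO 8.39, 9.24, 10.1 and 14 CPM. No control library reached the T-REX libraries. The rises were 0.50 ± 0.12 (SE, edgeR adjusted p = 0.0378), 0.73 ± 0.12 (adjusted p = 0.00273) and 0.80 ± 0.12 (adjusted p = 0.000266), or 1.41-, 1.66- and 1.74-fold. The smallest of these, against light alone, was lost in 10 of 16 fits without 1 library (without any 1 T-REX or light alone library, or probe alone replicate 1 or 2, 0.43 to 0.53, highest adjusted p = 0.205), and the differences from probe alone and DMSO were kept in all 16.

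At 6 h SLC6A9 was at 16.5, 17.4, 18.0 and 22.9 CPM under T-REX. It was at 11.5 to 15.8 under light alone, 12.2 to 13.6 under probe alone and 9.21 to 12.7 CPM under DMSO, below T-REX throughout. Only the difference from DMSO was called (0.82, adjusted p = 0.00148), beside 0.51 (adjusted p = 0.079) and 0.55 (adjusted p = 0.0865) against light alone and probe alone. With NCBP1 level as a covariate, DMSO at 6 h (0.85, adjusted p = 0.0252) and probe alone at 12 h (0.73, adjusted p = 0.00337) were called, and light alone and DMSO at 12 h (0.45, adjusted p = 0.557, and 0.73, adjusted p = 0.765) were not. CCDC24 lies opposite SLC6A9 and is in the count tables, and whether reads were assigned by strand is not stated.

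With NCBP1 level as a covariate, a fit added after the data were seen, 9 of the 90 tests were called in place of 27, since 20 calls were lost and 2 gained. Against probe alone it called 2 and 5 of the 10 at 6 and 12 h, where 1 and 4 were called without it, beside 34 and 147 of all genes. Against DMSO it called 2 at 6 h and 0 at 12 h, beside 27 and 2 of all genes. Against light alone it called 0 of the 10 at each time, where 8, 0 and 1 of all genes were called at 3, 6 and 12 h. Where T-REX had more NCBP1 reads than a control, the arm and the NCBP1 level moved together and cannot be told apart. In a fit with the 2 factors of unwanted variation that the authors deposited for each library, 61 of the 90 tests were called. That fit also called more of all genes, 257 to 3925 per comparison under T-REX in place of 16 to 1598. Between controls it called 183 to 3298 genes in place of 1 to 751.

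**Figure D3:**
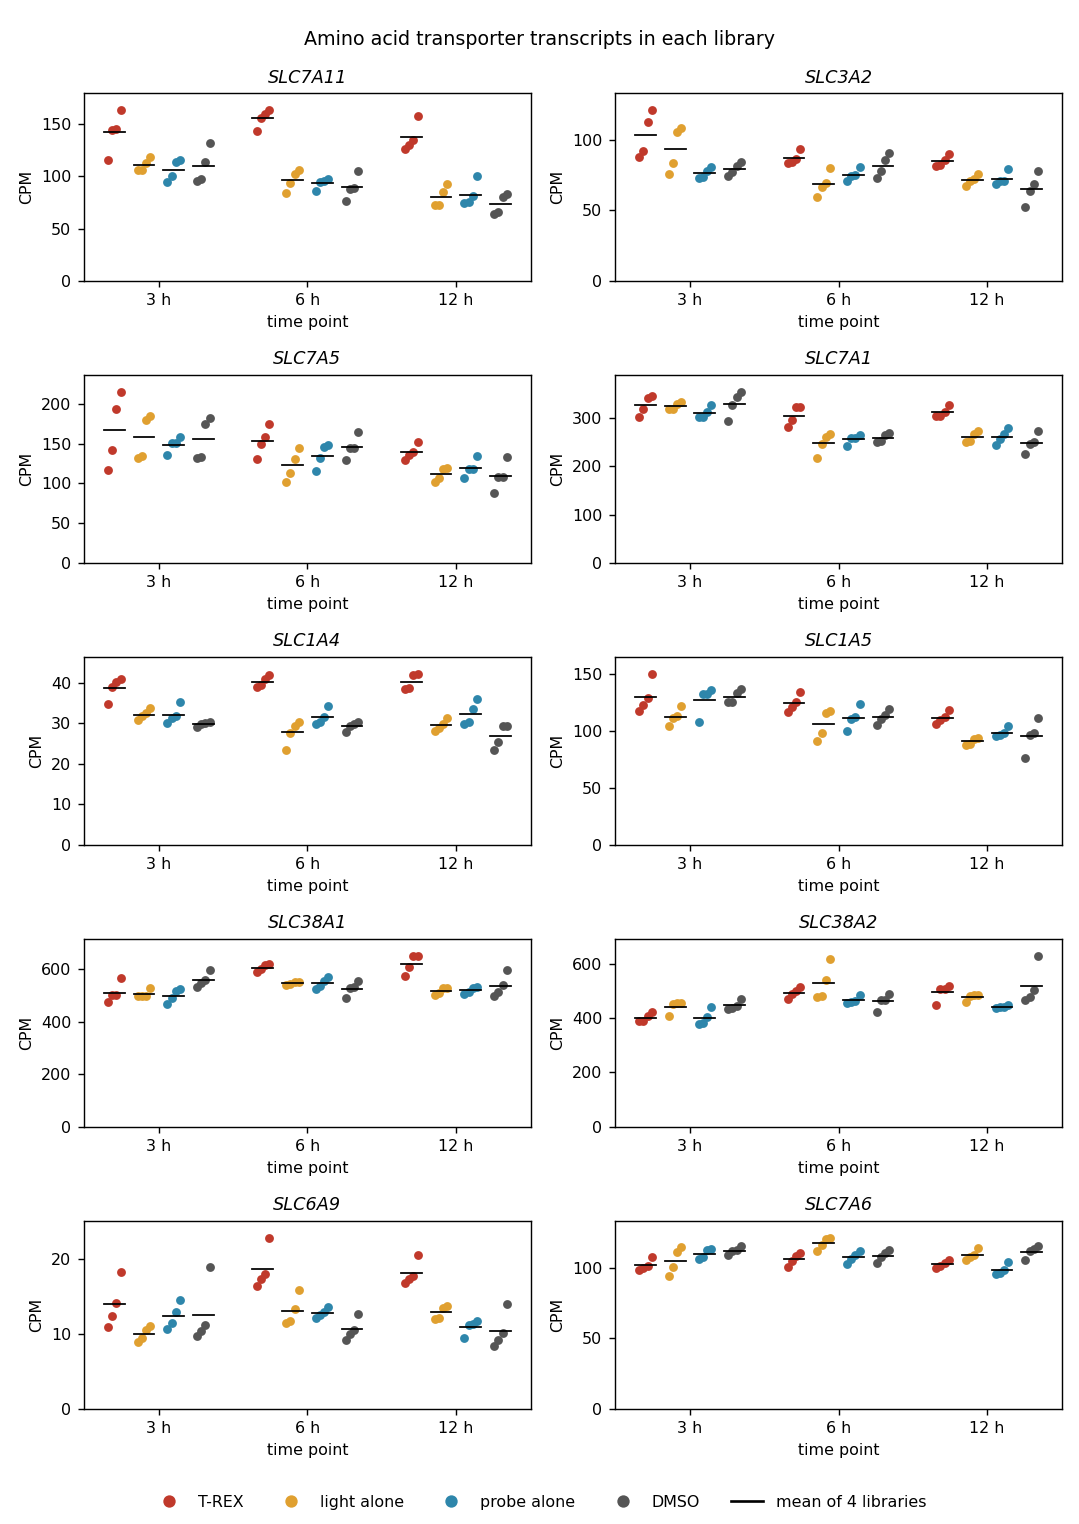
Level of each of the 10 transporters in CPM (vertical axes, starting at 0) in every library, by time point and arm, with a bar for the mean of 4 libraries. For SLC7A11 at 6 and 12 h the T-REX libraries lie between 126 and 163 CPM and the controls between 64.0 and 106 CPM.

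The controls were also compared with each other. Of the 90 tests between controls, 2 were called, both lower in probe alone than in DMSO at 12 h: SLC38A2 (-0.23 ± 0.07, SE, edgeR adjusted p = 0.046) and SLC7A6 (-0.18 ± 0.05, adjusted p = 0.0334). The SLC38A2 levels behind this are 437 to 449 CPM in probe alone and 467 to 628 CPM in DMSO, and the SLC7A6 levels 95.8 to 104 and 106 to 116 CPM, without overlap in either case. The SLC38A2 difference was -0.13 (adjusted p = 0.117) without DMSO replicate 3, and it was called in only 3 of the 16 fits that left out 1 library. The SLC7A6 call was kept without DMSO replicate 3 (-0.17, adjusted p = 0.0449) and lost without probe alone replicate 2, 3 or 4 (-0.17 to -0.16, highest adjusted p = 0.0919). Both were lost with the replicate number as a block (adjusted p = 0.0772 and 0.0504). The largest differences between controls were not called: SLC6A9 in light alone against DMSO was at -0.33, 0.31 and 0.30 at 3, 6 and 12 h (adjusted p = 0.721, 0.256 and 0.426) and against probe alone at 3 h at -0.31 (adjusted p = 0.488), SLC3A2 in light alone against probe alone at 3 h at 0.29 (adjusted p = 0.288), and SLC1A4 in probe alone against DMSO at 12 h at 0.27 (adjusted p = 0.0505). In size these are as large as some of the called rises of SLC7A1 and SLC38A1 under T-REX at 12 h. Over all genes, light alone against DMSO called 0.00681%, 0.00681% and 0.0136% at 3, 6 and 12 h, probe alone against DMSO 0.00681%, 0.0272% and 5.11%, and light alone against probe alone 0.232%, 0.0613% and 0.415%. The comparison that gave both calls is thus also the one with the largest share of called genes.

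The levels also moved with time within an arm. In DMSO from 3 to 12 h, 6 of the 10 fell and 1 rose, beside 38.8% of all genes called in either direction. The falls were SLC7A11 (-0.63 ± 0.11, SE, edgeR adjusted p = 2.57e-05), SLC7A5 (-0.56, adjusted p = 0.00244), SLC1A5 (-0.49, adjusted p = 5.53e-06), SLC7A1 (-0.46, adjusted p = 1.93e-08), SLC3A2 (-0.32, adjusted p = 0.0078) and SLC1A4 (-0.20, adjusted p = 0.0289), and SLC38A2 rose by 0.17 (adjusted p = 0.0389). Without DMSO replicate 3 at 12 h, SLC3A2 (-0.23, adjusted p = 0.0684), SLC1A4 (-0.14, adjusted p = 0.168) and SLC38A2 (0.07, adjusted p = 0.425) were not called. The SLC1A4 fall was also lost without DMSO replicate 1 or 4 at 3 h or replicate 1 at 12 h (-0.19, -0.19 and -0.17), and the SLC38A2 rise was lost in 8 of 48 fits in all. Of these DMSO calls, the SLC38A2 rise was also lost with DESeq2 (0.16) and with RLE factors (0.16), and the SLC1A4 fall with limma-trend (-0.16). Calls between times that these settings gained are not listed here. In T-REX over the same span, where 41.7% of all genes were called, SLC3A2 (-0.33, adjusted p = 0.00579) and SLC1A5 (-0.27, adjusted p = 0.00849) fell and SLC38A1 (0.23, adjusted p = 0.000196) and SLC38A2 (0.26, adjusted p = 0.00117) rose. SLC7A11 (-0.10, adjusted p = 0.513), SLC7A1 (-0.11, adjusted p = 0.115) and SLC1A4 (0.01, adjusted p = 0.909) were not called in T-REX over that span. From 3 to 6 h, 16% of all genes were called in DMSO, with SLC7A1 the only one of the 10 (-0.35, adjusted p = 2.57e-05). In T-REX 23.3% were, with SLC38A1 (0.25, adjusted p = 0.000234), SLC38A2 (0.30, adjusted p = 0.000591) and SLC6A9 (0.42, adjusted p = 0.0411) higher at 6 h. The SLC6A9 call was lost without T-REX replicate 1, 2 or 3 at 3 h or 1, 3 or 4 at 6 h (0.31 to 0.45, highest adjusted p = 0.169), and the 12 h fall of SLC1A5 under T-REX without T-REX replicate 3 at 3 h (-0.20, adjusted p = 0.0583). The other T-REX calls between times were kept in all 48 fits.

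Whether the T-REX effect itself differed between times was tested in a fit of all 48 libraries, with the effect taken as T-REX minus the mean of the 3 controls on the log2 scale. From 3 to 12 h the effect grew for SLC38A1, from -0.03 to 0.24 (difference 0.28 ± 0.06, SE, edgeR adjusted p = 0.0297), the only 1 of the 10 called, where 0.116% of all genes were. The call was lost without T-REX replicate 3 or probe alone replicate 2 at 3 h, or T-REX replicate 1 or 2 at 12 h (0.26, 0.27, 0.25 and 0.25, highest adjusted p = 0.17). SLC7A1 went from 0.02 to 0.28 (difference 0.26 ± 0.07, adjusted p = 0.0828), SLC7A11 from 0.38 to 0.80 (0.42 ± 0.13, adjusted p = 0.163) and SLC6A9 from 0.26 to 0.68 (0.41 ± 0.18, adjusted p = 0.363). These 3 were not called. SLC1A4 was at 0.30, 0.45 and 0.45 at 3, 6 and 12 h, and SLC3A2 at 0.32, 0.21 and 0.28. Between 3 and 6 h and between 6 and 12 h, 0% of all genes were called, with 4 and 0 of the 10 transporters and 1097 and 435 of all genes at an unadjusted p of at most 0.05. DESeq2 called 2 tests of the 10 transporters over the 3 contrasts, and edgeR 1.

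**Figure D4:**
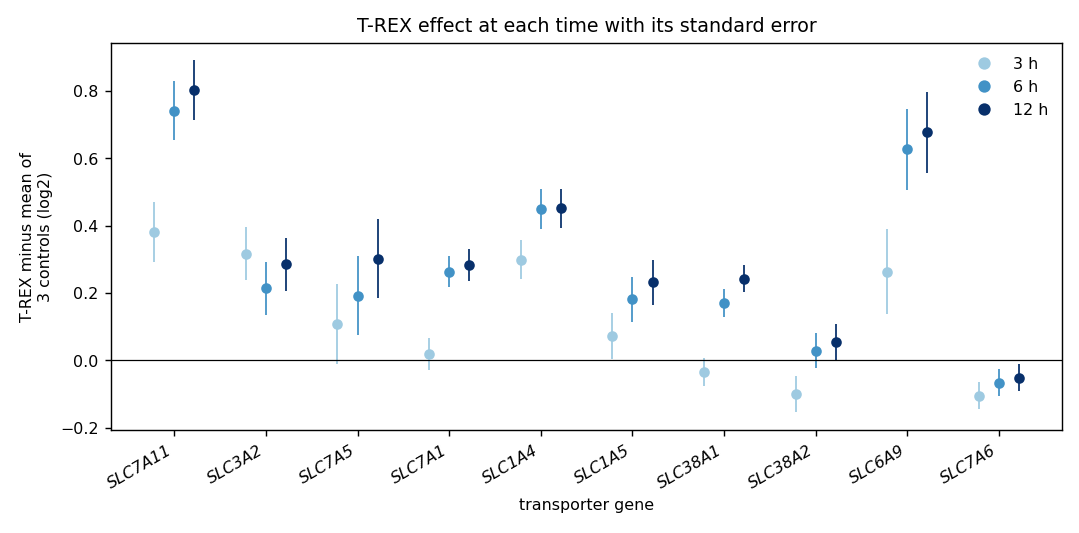
T-REX minus the mean of the 3 controls on the log2 scale (vertical axis) for each transporter at 3, 6 and 12 h, with bars of 1 standard error from the fit of 48 libraries. SLC38A1 moves from -0.03 to 0.24, SLC7A11 from 0.38 to 0.80, and SLC38A2 and SLC7A6 stay between -0.11 and 0.05.

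Levels can be compared between genes only per length, here as CPM per kilobase of the exons of a gene merged. In DMSO at 3 h the order was SLC38A2 (67.6 ± 2.59, SD, n = 4), SLC38A1 (55.9 ± 2.65), SLC7A1 (42.9 ± 3.35), SLC1A5 (39.1 ± 1.65), SLC7A5 (32.8 ± 5.63), SLC3A2 (15.3 ± 0.856), SLC7A6 (14.8 ± 0.344), SLC7A11 (11.4 ± 1.77), SLC1A4 (4.29 ± 0.0833) and SLC6A9 (2.44 ± 0.838). The libraries of SLC7A1 and SLC1A5, of SLC1A5 and SLC7A5, and of SLC3A2 and SLC7A6 overlapped, so that these neighbours are not ordered. Under T-REX at 12 h SLC7A11 stood at 14.3 CPM per kilobase, above SLC7A6 at 13.5 and below SLC3A2 at 16.4, with overlapping libraries in both cases. The cystine importer was thus in the lower part of the order in each of these arms, and the glutamine carriers SLC38A2 and SLC38A1 at the top.

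The genes whose pattern was most like that of SLC7A11, by Pearson's r over the 12 means of arm and time, each centred on its time point, were ZNF460 (0.98), FAM129A (0.98), AL160314.2 (0.96), DENND4A (0.95) and HSPBAP1 (0.95) among 14684 genes. FAM129A and AL160314.2 were low, with a mean of 3.28 and 4.05 CPM. Of the transporters, SLC1A4 (0.94), SLC7A1 (0.93) and SLC6A9 (0.91) came closest, at ranks 12, 16 and 37 of all genes. SLC7A5 (0.80), SLC38A1 (0.78), SLC1A5 (0.77) and SLC3A2 (0.76) followed, and SLC38A2 (0.06) and SLC7A6 (-0.49) were unlike it. The 12 points share their libraries and depth between genes, so that r is a description.

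Of 27 further transporters of the plasma membrane, 14 were in the tables and 0 changed against at least 2 controls at any time, a count to be read beside the small shares of all genes that met this rule. Their median log2 fold change at 12 h, over the mean of the 3 comparisons, was -0.01, against 0.28 for the 10. Single values among them were as large as those of the 10: SLC7A3 was at 0.91 and SLC43A2 at 0.49 at 12 h, and SLC6A17 at 0.59 at 3 h, where SLC7A11 was at 0.80 at 12 h and 0.39 at 3 h. Against DMSO alone at 12 h, SLC43A2 (0.77 ± 0.14, SE, edgeR adjusted p = 0.00118) and SLC7A3 (0.95 ± 0.30, adjusted p = 0.0442) rose and SLC1A1 (-0.68 ± 0.15, adjusted p = 0.00613) fell, which are named here because their values were seen. That comparison called 1598 of all 14685 genes, with 4.09% of all genes higher, and 2 genes with NCBP1 level as a covariate. Values of SLC43A2, SLC7A3 and SLC1A1 with that covariate or without DMSO replicate 3 are not given here. Of the transporters of lysosomes and other inner membranes, 9 of 12 were tested, with a median of 0.02 at 12 h, and of the mitochondrial carriers 10 of 12, with a median of 0.04. In both lists 0 met the rule of 2 controls.

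Of 27 genes on a list of ATF4 and the amino acid synthesis and stress genes it is known to drive, 26 were tested, and 8 rose and 0 fell against at least 2 controls at one or more times, 2 of them at 3 h, 0 at 6 h and 6 at 12 h. Among all genes, 0.177%, 0.0545% and 0.49% were higher against at least 2 controls at these times. ASNS, asparagine synthetase, rose at 3 h by 0.73 (edgeR adjusted p = 0.0105), 0.74 (adjusted p = 0.00817) and 0.82 (adjusted p = 0.00132) over the same controls. At 12 h the mitochondrial PCK2 rose by 0.54 (adjusted p = 0.0471), 0.59 (adjusted p = 0.0411) and 0.82 (adjusted p = 0.000652), and CEBPG, a binding partner of ATF4, by 0.30, 0.26 and 0.27 (adjusted p = 0.0033, 0.0197 and 0.00296). PSAT1, an enzyme of serine synthesis, rose by 0.39, 0.35 and 0.22 at 12 h (adjusted p = 0.00292, 0.0138 and 0.0414). EIF4EBP1, a repressor of cap-dependent translation, was at 0.47, 0.24 and 0.41 (adjusted p = 0.0282, 0.418 and 0.0179) and ATF4 itself at 0.23, 0.22 and 0.28 (adjusted p = 0.0251, 0.0561 and 0.00129), each called against light alone and DMSO. Values of this list with NCBP1 level as a covariate or without DMSO replicate 3 are not given here. With that covariate, only 1 and 2 of all genes were called against light alone and DMSO at 12 h. The median of the list at 12 h was 0.22, beside 0.28 for the transporters and -0.01 for the other plasma membrane carriers.

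Of 21 NRF2 targets and glutathione genes other than SLC7A11, 19 were tested and 0 met the rule of 2 controls at any time, with a median of 0.04 at 12 h. Against DMSO alone at 12 h, HMOX1, heme oxygenase (0.70, adjusted p = 0.00207), and FTH1 (0.21), a ferritin chain, rose, and the reductase CBR1 (-0.52), thioredoxin TXN (-0.43) and peroxiredoxin PRDX1 (-0.25) fell. That comparison called 1598 of all 14685 genes, with 4.09% of all genes higher. With NCBP1 level as a covariate it called 2 of all genes. Values of the named genes with that covariate or without DMSO replicate 3 are not given here. SLC7A11 is known as a target of both ATF4 and NRF2. Whether the ATF4 list and the NRF2 list differ was not tested. Among all genes 0.177%, 0.0545% and 0.49% met the rule in the higher direction at 3, 6 and 12 h. The 0 of 19 is near these shares. The mean of the 3 log2 fold changes at 12 h ran from -0.33 (TXN) to 0.40 (HMOX1) on the NRF2 list. On the ATF4 list it ran from -0.31 (ATF5) to 0.65 (PCK2).

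**Figure D5:**
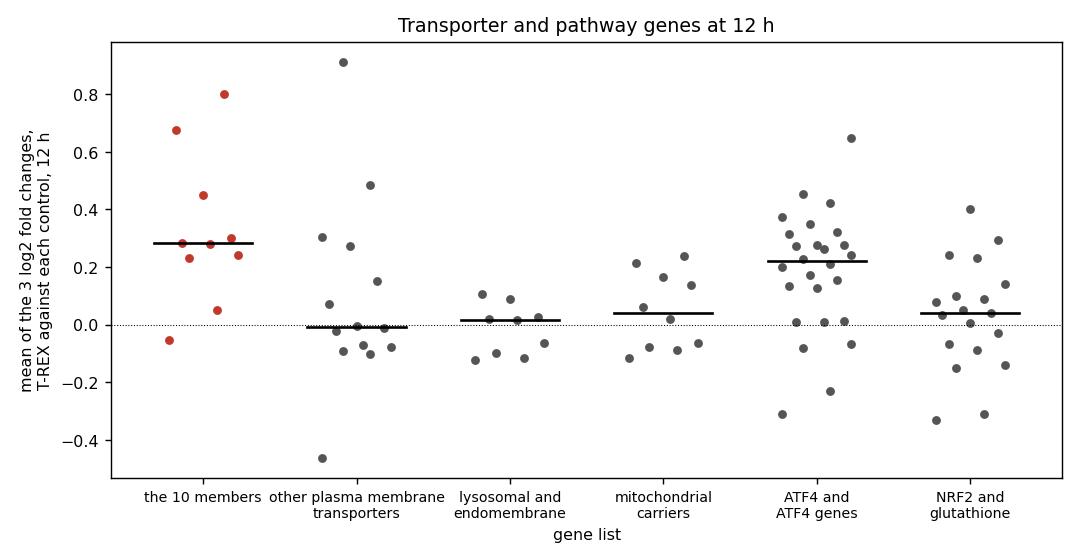
Mean of the 3 log2 fold changes of T-REX against the controls at 12 h (vertical axis), 1 point per gene tested, with a bar for the median of each list. The medians are 0.28 for the 10 transporters and 0.22 for the ATF4 list, and lie between -0.01 and 0.04 for the other 4 lists.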

How the data were processed

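RNA of 48 libraries (4 arms at 3, 6 and 12 h, 4 replicates each) was measured by paired-end sequencing after depletion of ribosomal RNA. The authors deposited counts per gene for each time point, which were not normalized, together with log2 CPM values and, in the sample descriptions, a score per library for each of 2 factors of unwanted variation (RUV). Tables of values with these factors removed were not used here. The reporting summary lists cutadapt, TopHat and Cufflinks. The counter, the genome build and the annotation are not given in the sources used here. Symbols and lengths were taken from GENCODE 29, which holds 14556 of the 14685 identifiers.

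Counts were tested in R 4.3.3 with edgeR 4.0.16 (TMM, filterByExpr, which removed 0 genes, robust glmQLFit and the quasi-likelihood F-test). Each time point was 1 fit of its 16 libraries, and tests between times used all 48. p-values were adjusted by Benjamini-Hochberg over all genes within a comparison. CPM used TMM library sizes, and log2 CPM a prior count of 2. The alternatives were DESeq2 1.42.0, RLE factors, no filter, a replicate block, fits of only 2 arms, RUV factors entered as covariates, limma-trend (limma 3.58.1) on the deposited log2 CPM, and leaving out each library. NCBP1 level as a covariate was added after the data were seen. Figures were drawn in Python 3.11.15 with matplotlib 3.10.9.

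All 10 transporters are named. Of the gene lists, genes called against at least 2 of 3 controls at any time are named, at most 6 per list by the largest smallest log2 fold change, and so are the 5 genes most like SLC7A11. The transporters and lists were chosen with earlier results of these data known, so that no count over them is independent evidence. Precision rests on 4 libraries per arm and on 215 to 24184 counts per transporter and library. Replicate libraries differed by more than counting error in each of 72 pairs (chi-square per degree of freedom 3.15 to 46.5), so that no library was taken as a copy of another.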

Additional observations from a re-analysis of the deposited data

Results flagged for a closer look

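In 5 of the 120 groups of 4 libraries (10 transporters in 12 arms and times), 1 library stood apart by Dixon's criterion (the gap to the next library over the range of the 4), where chance gives about 1 in 20 groups. SLC1A5 was low in replicate 2 of probe alone at 3 h, at 108 CPM with the next library at 133 (gap over range 0.889). SLC38A1 was high in replicate 1 of light alone at 3 h, at 529 CPM with the next at 499 (0.937), and SLC38A2 was low in replicate 4 of light alone at 3 h, at 408 CPM with the next at 451 (0.925). SLC38A2 was low in replicate 3 of T-REX at 12 h, at 447 CPM with the next at 508 (0.839), and SLC6A9 was high in replicate 1 of DMSO at 3 h, at 19.0 CPM with the next at 11.2 (0.839). The libraries named for SLC38A1 and for SLC38A2 under T-REX enter called comparisons between times.

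The T-REX effect on SLC38A1 differed between 3 and 12 h by a test of the difference itself, by 0.28 on the log2 scale (0.276, edgeR adjusted p = 0.0297). The call was lost in 4 of 48 fits without 1 library (0.24 to 0.33 over the 48, highest adjusted p = 0.17).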

How the results depend on the processing

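No value changed direction past the threshold in any alternative. The 27 calls under T-REX became 42 with DESeq2, 61 with the RUV factors and 9 with NCBP1 level as a covariate (chosen after seeing the data), and 19 to 32 without 1 library. The transporters changed against at least 2 controls at 3 h (1) became 0 with RLE factors, fits of only 2 arms, limma-trend or the NCBP1 covariate, 3 with DESeq2, 4 with RUV and 0 to 2 without 1 library. Those at 6 h (2) became 4 with DESeq2 or only 2 arms, 6 with RUV, 1 with the NCBP1 covariate and 2 to 4 without 1 library, and those at 12 h (5) became 8 with RUV, 0 with the NCBP1 covariate and 3 to 7 without 1 library. Between controls, where 2 calls were made, 20 were made with RUV, 1 with only 2 arms (another one, SLC7A6 in light alone against probe alone at 12 h, with both of the 2 lost), 0 with the NCBP1 covariate and 0 to 3 without 1 library, the 1 call of an effect that differs between times 2 with DESeq2 and 0 to 2 without 1 library, and the 15 calls between times 14 to 18 without 1 library. The causes were not tested.

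Same-numbered libraries did not all deviate together (r from -0.636 to 0.572 at 3 h, -0.537 to 0.474 at 6 h and -0.357 to 0.236 at 12 h), although those numbered 3 at 3 h did (0.145 to 0.572 over 6 pairs). Of 48 libraries 16 correlated best with their own number, where 12 would if the 4 numbers were alike, and the numbers were not taken as pairs. With the number as a replicate block, 1 call between controls (SLC1A4 in probe alone against DMSO at 12 h, with both of the 2 lost) was made, 15 of 15 calls between times were kept and 1 was gained, and 3 of the 90 tests under T-REX lost and 4 gained a call.

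Of the 90 log2 fold changes, 75 kept their side of the threshold with DESeq2 (15 gained), 89 with RLE factors, 90 without a filter, 56 with RUV (34 gained), 75 with only 2 arms (5 lost, 10 gained), 87 with limma-trend and 68 with the NCBP1 covariate (20 lost, 2 gained), and 1340 of 1440 without 1 library (74 lost, 26 gained). Over all genes, calls of T-REX against light alone, probe alone and DMSO were 29, 154 and 880 at 3 h, 32, 16 and 61 at 6 h, and 189, 103 and 1598 at 12 h. They were 1733, 2551 and 3061, 1202, 257 and 1048, and 1266, 901 and 3925 with RUV, and 3, 3 and 187, 9, 88 and 128, and 1127, 389 and 366 with only 2 arms. DESeq2 gave 260, 623, 153, 57, 288, 409 and 257 where it moved the count by over 1.5 times (light alone and probe alone at 3 h, the 3 at 6 h, light alone and probe alone at 12 h), and the block 44 and 50 against light alone at 3 and 6 h. With the NCBP1 covariate the counts were 8, 14 and 21 at 3 h, 0, 34 and 27 at 6 h, and 1, 147 and 2 at 12 h. RUV, 2-arm and NCBP1 covariate fits were not run for contrasts between times.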
